A study of Mus musculus with 35 samples.

Results

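Mouse cells that lack TET3 were compared with cells whose Tet3 gene carries mutations that end catalysis, by RNA-seq on day 3 of differentiation to neuroectoderm (NE). The comparison rests on 5 of the 35 samples of the series: 2 of Tet3 knockout cells (Tet3-/-, called KO1 and KO2) and 3 of Tet3 catalytic mutant cells (Tet3 m/m, called Mut1 to Mut3), chosen by the genotype in their labels. All derive from V6.5 embryonic stem cells (ESCs), a male line of mixed 129/C57BL/6 background. They were kept in serum with LIF, a cytokine that holds ESCs undifferentiated, and then had LIF removed and 1 µM retinoic acid (RA) added for 72 h. The Tet3-/- clones carry a deletion of exon 4, and the Tet3 m/m clones carry point mutations in the iron-binding site of the enzyme. By the study's methods each genotype is represented by independent clones, so replicates are clones and differ in their history as well as in their culture. A further 3 samples of unedited cells (Tet3+/+, WT1 to WT3), grown and treated in the same way, were not part of the contrast. They shared the estimate of the spread and are given as a reference level.

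TET enzymes oxidise 5-methylcytosine in DNA to 5-hydroxymethylcytosine and beyond, a route by which methyl marks are removed. The reaction needs iron and 2-oxoglutarate, so that a mutated iron site leaves a protein that can still bind chromatin and partner proteins but cannot oxidise. TET3 is the family member that is induced as ESCs take on a neural fate. A gene whose RNA differs between Tet3-/- and Tet3 m/m therefore differs between cells that both lack TET3 catalysis, and the comparison was made to look for effects of TET3 that do not need the enzyme activity. It presumes that Tet3 m/m cells keep the mutant protein, which was not measured here. The paper reports reduced mutant Tet3 RNA in these cells and allows that the protein may be reduced too.

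The values are normalised counts, which are read counts per gene divided by a size factor of each sample, and 36594650 to 47710548 reads lay behind each Tet3-/- and Tet3 m/m sample. Differences are given as Tet3-/- minus Tet3 m/m in log2(normalised count + 1), with the standard error (SE) from limma and a p-value adjusted over the 17915 genes tested, of 17948 in the table. A differentially expressed gene (DEG) changed by more than 1.5-fold with an adjusted p below 0.05. Values of a gene are given for Mut1, Mut2 and Mut3 against KO1 and KO2, and adjusted p-values here are those of limma with Benjamini-Hochberg adjustment. Samples stood apart on single chromosomes. A run of 380 genes of chromosome 6 that holds Tet3 had a median difference of 0.88, with 206 DEGs higher in Tet3-/-, against -0.05 for the other 479 genes of that chromosome. Against Tet3+/+, its genes had medians of -0.87, -0.87 and -0.83 in Mut1 to Mut3, and -0.01 and 0.12 in KO1 and KO2. Genes of chromosome 8 had a median difference of 0.27, and lay at -0.38, -0.34 and -0.29 in Mut1 to Mut3, 0.17 in KO1 and -0.31 in KO2. Eif2s3y, a gene of chromosome Y, was at 0, 144 and 79.4 in Mut1 to Mut3, 74.2 in KO1 and 2409 in KO2, against 287 to 546 in Tet3+/+. The shift of the chromosome 6 segment cannot be told apart from the genotype, since every Tet3 m/m sample and neither Tet3-/- sample carries it. On chromosome 8 the shift does not follow the genotype, as KO2 lay with the Tet3 m/m samples. Of the genes named below without their chromosome, Calcr, Col1a2, Mbd4, Mcm2, Nanog, Peg10, Slc2a3, Sox5 and Wnt5b lie on chromosome 6 outside the segment, and Mvd and Sox1 on chromosome 8.

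**Figure D1:**
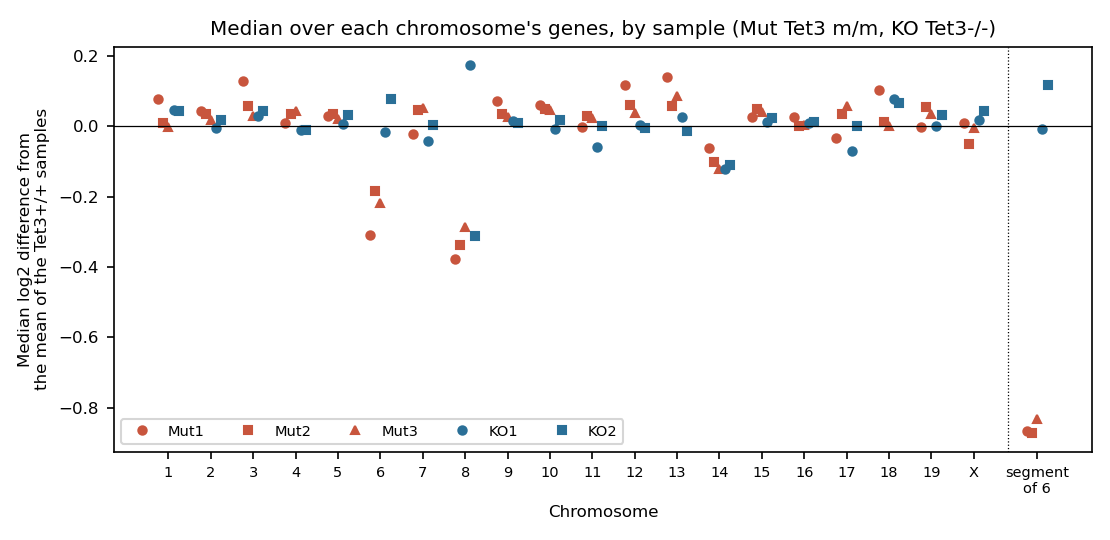
Median log2 difference of each chromosome's genes from the mean of the 3 Tet3+/+ samples (y axis), for each Tet3 m/m (red) and Tet3-/- (blue) sample, by chromosome (x axis) and, at the far right, for the 380-gene segment of chromosome 6. The Tet3 m/m samples lie at -0.87 to -0.83 in that segment, where KO1 and KO2 are at -0.01 and 0.12, and on chromosome 8 KO2 lies with the Tet3 m/m samples.

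Tet3 RNA overlapped between the mutants and lay under every Tet3+/+ value in both. Tet3 was at 2666, 2277 and 1945 normalised counts in Mut1 to Mut3 and at 1796 and 2329 in KO1 and KO2, against 4613, 4576 and 5020.0 in WT1 to WT3. The Tet3-/- and Tet3 m/m samples overlapped, with a difference of -0.15 (SE 0.15, adjusted p 0.54) and a 95% interval of -0.48 to 0.17. The median difference of the 100 genes around Tet3 was 0.84. A count over the whole gene resolves neither the lost exon nor the point mutations, so it does not by itself check the genotype labels. Of the 25 tested enzymes and partners of DNA methylation and demethylation, 1 was higher and 3 were lower in Tet3-/-, with a median difference of -0.07 beside -0.01 over all genes. That is 16% called, beside 9.73% over all genes. Tet1, at 2001, 1492 and 2028 in Tet3 m/m against 1908 and 1469 in Tet3-/-, and Tet2, at 2001, 1781 and 2319 against 1981 and 1835, overlapped between the genotypes (-0.12 and -0.08, adjusted p 0.688 and 0.714). So did the maintenance methyltransferase Dnmt1 (0.08, adjusted p 0.629) and the de novo methyltransferase Dnmt3a (0.00, adjusted p 0.997). Dnmt3b, another de novo methyltransferase, was at 3836, 3847 and 4119.9 in Tet3 m/m against 2796 and 2309 in Tet3-/-. Its cofactor Dnmt3l, which is typical of ESCs and germ cells, was at 1955, 2883 and 2338 against 1045 and 828. All Tet3 m/m samples lay above both Tet3-/- samples for both genes, with differences of -0.63 (SE 0.12, adjusted p 0.00799) and -1.34 (SE 0.19, adjusted p 0.00201), and the Tet3+/+ means of 2736 ± 275 and 969 ± 172 (mean ± SD, n = 3, as for every Tet3+/+ mean given here) lay at the level of Tet3-/-. The thymine glycosylase gene Mbd4 was lower in Tet3-/- (-0.59, adjusted p 0.0162), and Gadd45a, a stress gene in the chromosome 6 segment, was higher (0.66, adjusted p 0.0276). The test was no longer passed on leaving out 1 sample by Mbd4 (adjusted p up to 0.0848 without Mut1 or KO2), Gadd45a (adjusted p up to 0.167 without Mut1, Mut2 or KO2) and Dnmt3b (adjusted p 0.055 without KO2).

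Over all genes, 1744 (9.73%) were DEGs, 969 higher in Tet3-/- (5.41% of the genes tested) and 775 lower (4.33%). Counts of called members in every day 3 list are to be read against these shares. An unadjusted p under 0.05 was found for 5017 genes. In all 1744 DEGs the 2 genotypes did not overlap, as did 20.7% of all genes with Tet3-/- higher and 20.2% with Tet3-/- lower, so the separation of DEGs is no further evidence. Chromosome 6 held 252 of the DEGs and chromosome 8 held 97, and of the 1395 on other chromosomes or with none matched, 655 were higher and 740 lower. Leaving out 1 sample at a time gave 1152 DEGs (without Mut2) to 2219 (without Mut1), and 1157 were called when the Tet3+/+ samples did not share the estimate of the spread. Without KO1 or KO2 a single Tet3-/- sample is left, which is then assumed to vary like the other groups.

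The largest rises among DEGs with a mean of at least 100 were, Mest apart, in genes with few reads in Tet3 m/m. Serpinb9e, of a family of intracellular protease inhibitors expanded in rodents, was at 0, 0 and 4.07 in Mut1 to Mut3 and 298 and 318 in KO1 and KO2, near the 354 ± 98.4 of Tet3+/+ (adjusted p 0.000306). For a gene with so few reads in 1 genotype no fold is given, since it would depend on the added 1. Mest, an imprinted gene read from the paternal copy, was at 363, 516 and 365 in Tet3 m/m against 34766 and 24732 in Tet3-/-, where Tet3+/+ had 34566 ± 2275. Mest lies in the chromosome 6 segment. Its difference was 6.16 (SE 0.18, adjusted p 4.29e-08), and the median of the 100 genes around it was 0.92. For a gene read from 1 copy, that median does not measure how far its level would follow the segment. The part of the segment in the level of Mest was not tested. Dbx1, a homeobox factor of ventral interneuron progenitors, was at 0, 5.06 and 28.5 against 165 and 146, Nhlh1, a bHLH factor of newborn neurons, at 2.05, 3.37 and 14.3 against 81.7 and 86.5, and Mir124-2hg, the host transcript of a neuronal microRNA, at 22.5, 15.2 and 18.3 against 265 and 289. Syna, which encodes the placental fusion protein syncytin-A, was at 10.2, 18.5 and 8.15 against 171 and 126. These 4 genes differed by 4.79, 3.85, 3.84 and 3.55 (adjusted p 0.0144, 0.0031, 0.000351 and 0.000731). That of Dbx1, with few reads in Tet3 m/m, ran from 3.55 to 5.99 over the alternative fits, which include other added values. Both Tet3-/- samples lay above all Tet3 m/m samples in each of the 4 genes, which the rule of choice required. Calls that rest on single samples were those of Dbx1 (adjusted p up to 0.0744 without KO1 or KO2).

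The 6 largest falls by the same rule were in Srgn, Khdc3, Cubn, Pla2g1b, Acan and Hkdc1. Srgn, the core protein of the granule proteoglycan serglycin, was at 397, 379 and 723 in Tet3 m/m against 14.8 and 38.7 in Tet3-/-. Cubn, which encodes the endocytic receptor cubilin of yolk sac endoderm and kidney, was at 2252, 1724 and 4009 against 95.4 and 250.5. Both genes were at a level between the mutants in Tet3+/+, with 167 ± 55.9 and 535 ± 194. Khdc3, an oocyte and ESC gene, was at 223, 549.7 and 484 against 27.6 and 14.8. Pla2g1b, a secreted phospholipase, was at 140.3, 240.3 and 319 against 14.8 and 14.8, the cartilage proteoglycan Acan at 291, 657 and 589 against 57.3 and 39.8, and Hkdc1, a hexokinase-like gene, at 180.3, 254 and 472 against 25.5 and 33.02. The 6 differences were -4.25, -4.004, -4.20, -3.81, -3.31 and -3.22 (adjusted p 0.000473, 0.000646, 0.000877, 0.00221, 0.00082 and 0.00167). Each Tet3 m/m sample lay above both Tet3-/- samples, again as the rule required.

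**Figure D2:**
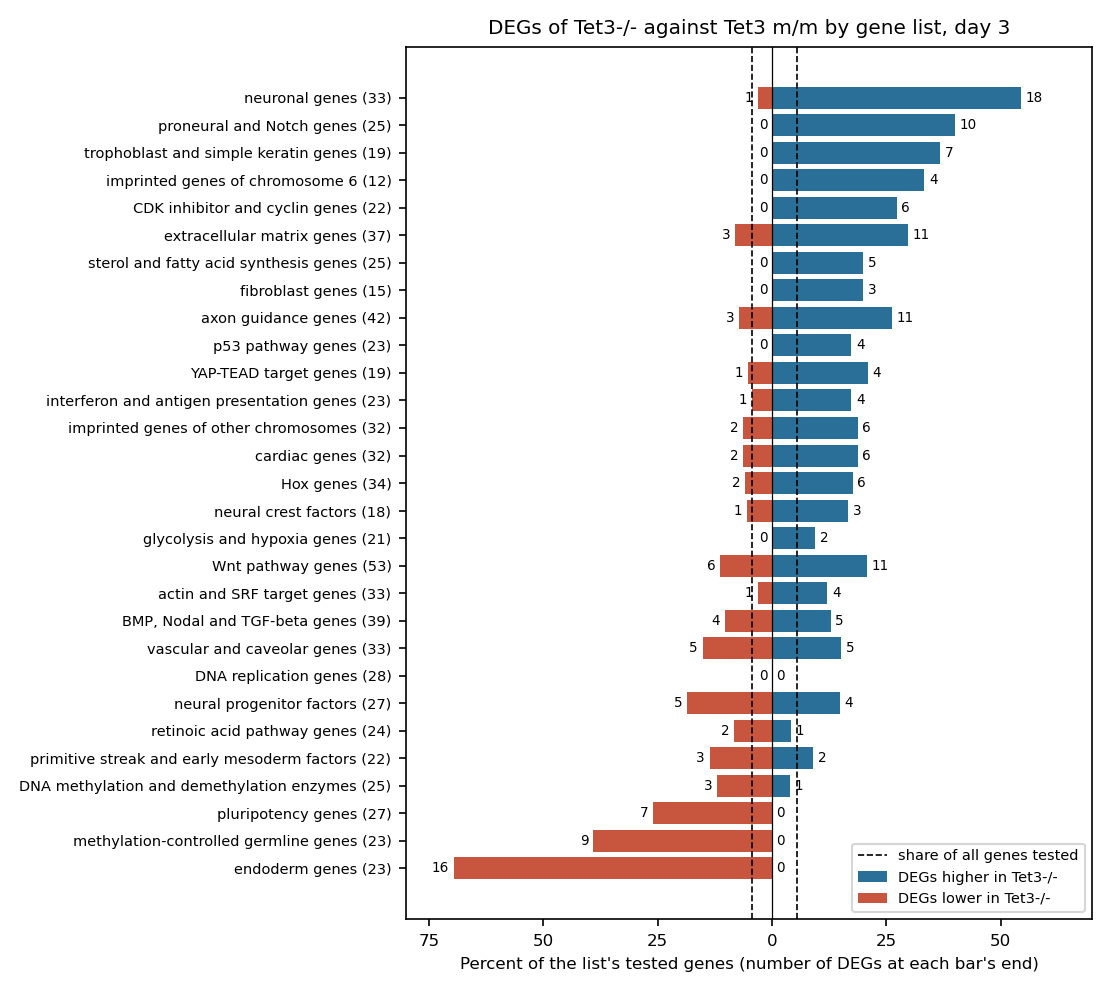
Share of the tested genes of each list that were DEGs higher (blue, right) or lower (red, left) in Tet3-/- than in Tet3 m/m, in percent, with the number of DEGs at the end of each bar and the number tested in parentheses; dashed lines mark the share over all genes, 5.41% higher and 4.33% lower. Endoderm genes (16 of 23 lower) and neuronal genes (18 of 33 higher) stand at the ends, and no DNA replication gene was called.

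Most genes of differentiating neurons were higher in Tet3-/-. Of the neuronal list, 18 of 33 tested genes were DEGs higher in Tet3-/- and 1 lower, with a median difference of 1.13, where 5.41% of all genes were higher. Tubb3, the neuron-specific tubulin, was at 551, 693 and 693 in Mut1 to Mut3 and 2713 and 1502 in KO1 and KO2. Dcx, the microtubule protein doublecortin of migrating neurons, was at 270.4, 163 and 91.6 against 532 and 685. Both genotypes were apart in each gene, with differences of 1.65 (SE 0.26, adjusted p 0.00317) and 1.92 (SE 0.36, adjusted p 0.00783), and the Tet3-/- samples were near the Tet3+/+ means of 1706 ± 433 and 489 ± 80.4. Tubb3 lies on chromosome 8, and the 100 genes around it had a median difference of 0.37. St18, a zinc-finger factor of the Myt1 family, was at 2.05, 0 and 2.04 in Tet3 m/m against 99.7 and 51.2 in Tet3-/-, and Scrt2, a repressor of the Snail family found in neurons, at 0, 15.2 and 22.4 against 91.2 and 132. St18 was close to 0 in every Tet3 m/m sample (adjusted p 0.00134), and Scrt2 differed by 3.94 (adjusted p 0.0353). The latter difference, with few reads in Tet3 m/m, ran from 2.51 to 5.08 over the alternative fits. Chga, the neuroendocrine granule protein chromogranin A, was the 1 called gene that went the other way, at 188, 213 and 258 in Tet3 m/m against 99.7 and 97.9 in Tet3-/- (-1.13, adjusted p 0.0245). As single samples were left out, the number of neuronal DEGs higher in Tet3-/- ran from 11 (without KO1) to 18 (without Mut1 or Mut3). Not every call held without each sample, the exceptions being Scrt2 (adjusted p up to 0.137 without WT1, WT2, WT3, KO1 or KO2), Chga (adjusted p up to 0.0824 without Mut2, Mut3, KO1 or KO2) and Dcx (adjusted p 0.0538 without KO2).

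Proneural factors are bHLH proteins that commit a progenitor to become a neuron, and Notch signalling holds neighbouring progenitors back. Of the genes of both groups, 10 of 25 tested genes were DEGs higher in Tet3-/- and 0 lower, with a median difference of 0.74. Beside this 0 from limma stood 2 lower at an unadjusted p under 0.05, 0 by edgeR and 0 by DESeq2. Neurog1, which starts sensory and hindbrain neurogenesis, was at 14.3, 54.8 and 63.1 in Tet3 m/m against 238 and 214 in Tet3-/-. Neurod4, a later bHLH factor, was at 6.15, 10.1 and 0 against 74.2 and 62.6, and the Notch ligand gene Dll4 at 26.6, 1.69 and 6.11 against 91.2 and 46.7. Both Tet3-/- samples were above all Tet3 m/m samples in the 3 genes, with differences of 2.58, 4.01 and 3.04 (adjusted p 0.00959, 0.0129 and 0.032). Neurog1 in Tet3-/- was nevertheless under the 837, 712 and 1148 counts of WT1 to WT3. The first 2 members of the list did not follow. Neurog2, at 14.3, 18.5 and 28.5 in Tet3 m/m against 8.48 and 5.69 in Tet3-/-, and the Notch target Hes5, at 0, 14.3 and 12.2 against 5.30 and 22.8, were far under the Tet3+/+ means of 96.5 ± 25.2 and 170.3 ± 63.3 in both mutants. Their differences were -1.38 and 1.06 (adjusted p 0.0827 and 0.558), and that of Hes5 turned to -0.22 without Mut1. Over the leave-one-out fits, the DEGs higher in Tet3-/- ran from 5 (without KO1) to 10 (without Mut1 or Mut3). Leaving out 1 sample at a time ended the call of Neurog1 (adjusted p 0.0564 without KO1), Neurod4 (adjusted p up to 0.0714 without KO1 or KO2) and Dll4 (adjusted p up to 0.174 without WT1, WT2, WT3, Mut2, Mut3, KO1 or KO2).

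Progenitor factors, which pattern the neural tube, were split. Of these, 4 of 27 tested genes were DEGs higher in Tet3-/- and 5 lower, with a median difference of 0.01. The POU factors Pou3f2, at 49.2, 47.2 and 50.9 in Tet3 m/m against 210.0 and 132 in Tet3-/-, and Pou3f3, at 65.6, 103 and 138 against 531 and 359.8, were higher in Tet3-/- (1.74 and 2.15, adjusted p 0.00679 and 0.00216), as was Dbx1. Gbx2, a factor of the anterior hindbrain, was lower, at 424, 561 and 823 in Tet3 m/m against 125 and 195 in Tet3-/-, and so was the forebrain factor Six3, at 55.3, 37.1 and 38.7 against 12.7 and 11.4. Their differences were -1.89 and -1.76 (adjusted p 0.00352 and 0.0297). Sox1, the earliest marker of neuroectoderm, was at 396, 1242 and 1765 in Tet3 m/m against 955 and 253 in Tet3-/- and at 1063, 1810.0 and 3013 in Tet3+/+. The spread between clones exceeded the difference of -0.96 (SE 0.66, adjusted p 0.383), whose 95% interval ran from -2.42 to 0.51 and which became 0.0016 without KO2. Pax6, a regulator of cortical and spinal progenitors, overlapped between the mutants (0.27, adjusted p 0.374). The summed level of the 27 progenitor genes was 22138 to 34681 in Tet3 m/m, 33377 and 38868 in Tet3-/- and 33892 to 44807 in Tet3+/+, so the markers of the labelled cell type were present in every sample. The test was no longer passed on leaving out 1 sample by Pou3f2 (adjusted p 0.0564 without KO1) and Six3 (adjusted p up to 0.088 without Mut1, Mut2, Mut3, KO1 or KO2).

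Receptors and ligands that steer axons were higher more often than lower. Of this list, 11 of 42 tested genes were DEGs higher in Tet3-/- and 3 lower, with a median difference of 0.26. Unc5a, a netrin receptor, was at 170.0, 223 and 214 in Tet3 m/m against 858 and 868 in Tet3-/-, and Robo3, the receptor that lets commissural axons cross the midline, at 45.1, 26.1 and 80.4 against 319 and 200.4. The genotypes were apart for both (2.10 and 2.44, adjusted p 0.00043 and 0.00521). Plxna4, a semaphorin coreceptor of the chromosome 6 segment, was at 10.2, 13.5 and 14.3 against 78.5 and 88.8 (2.64, adjusted p 0.00221, beside 0.91 for the 100 genes around it). The midline repellent Slit2 was higher in Tet3-/- (0.71, adjusted p 0.0102) while Slit1 was not called (-0.84, adjusted p 0.0611), and 3 genes were lower, the attractant Ntn1, at 3521, 6034 and 6622 against 2633 and 1659 (-1.32, adjusted p 0.00959), Sema3e (-0.80, adjusted p 0.0219) and Epha4 (-0.62, adjusted p 0.0296). Among factors of the neural crest, a migratory population that leaves the dorsal neural tube, 3 of 18 tested genes were DEGs higher in Tet3-/- and 1 lower, with a median difference of 0.19. Pax7, at 26.6, 32.04 and 35.6 in Tet3 m/m against 93.3 and 141 in Tet3-/-, Tfap2a, at 82.97, 158 and 113 against 259.8 and 223, and Msx2 (0.82, adjusted p 0.0321) were higher (1.85 and 1.07, adjusted p 0.00424 and 0.041). Sox10, which marks crest and glia, was lower, at 153, 125 and 130.3 against 36.1 and 29.6 (-2.02, adjusted p 0.00367), and Foxd3, at 24.6, 79.2 and 167 against 61.5 and 22.8, overlapped (-0.86, adjusted p 0.513). Calls that rest on single samples were those of Slit2 (adjusted p 0.0655 without KO1), Ntn1 (adjusted p 0.0742 without KO2), Sema3e (adjusted p up to 0.128 without Mut2, Mut3 or KO2), Epha4 (adjusted p up to 0.127 without WT1, Mut2, Mut3, KO1 or KO2), Msx2 (adjusted p up to 0.14 without WT1, WT3, Mut2, Mut3, KO1 or KO2) and Tfap2a (adjusted p up to 0.174 without WT2, WT3, Mut1, Mut3, KO1 or KO2).

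**Figure D3:**
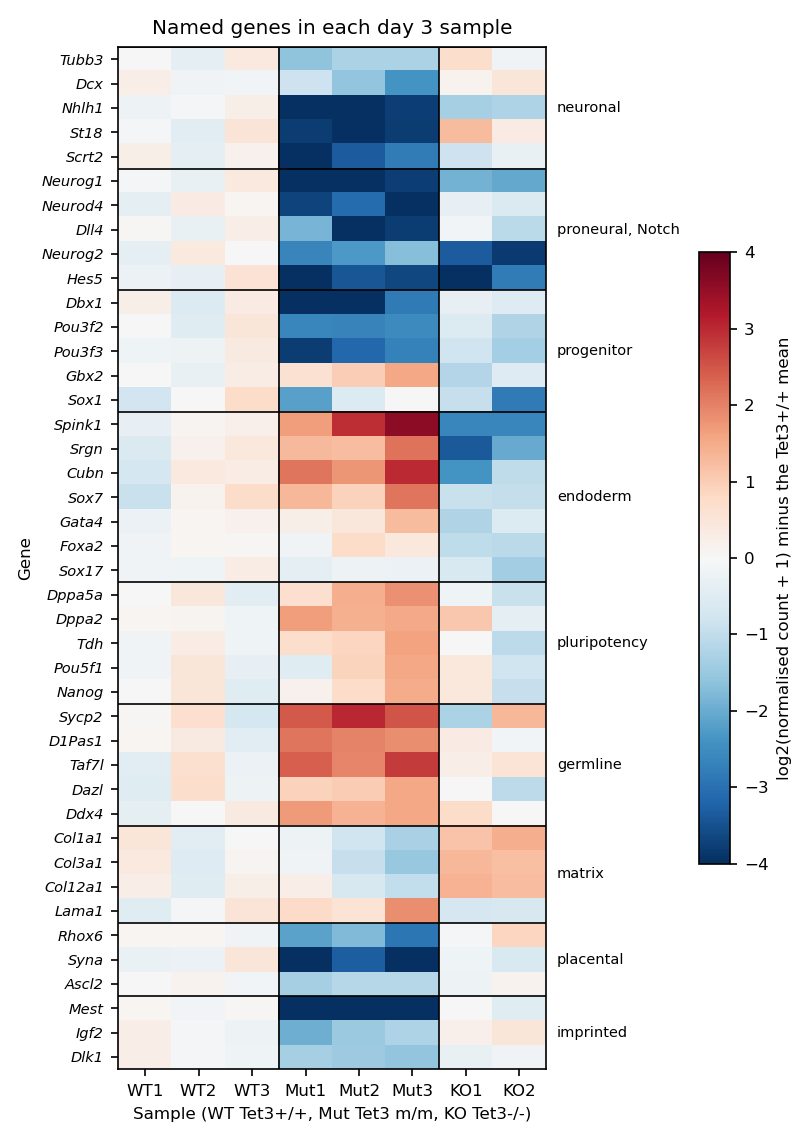
Log2(normalised count + 1) of named genes (rows, by group) in each sample (columns), minus the mean of the 3 Tet3+/+ samples; blue is lower, red is higher, and colours are limited to 4 in either direction. Srgn, Cubn and the 5 germline genes are red in the Mut samples and paler or blue in the KO samples, the neuronal, placental and imprinted genes are blue in the Mut samples, and Neurog2 and Hes5 are blue in both mutants.

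Most endoderm genes were lower in Tet3-/-. Endoderm forms the gut and, outside the embryo, the visceral and parietal yolk sac, and arises as a side product when ESCs are given RA. Of this list, 0 of 23 tested genes were DEGs higher in Tet3-/- and 16 lower, with a median difference of -1.52, where 4.33% of all genes were lower. Set against the limma count of 0 were 1 higher at an unadjusted p under 0.05, 0 by edgeR and 0 by DESeq2. Sox17, an endoderm and endothelial factor, was at 1091, 1234 and 1182 in Tet3 m/m against 915 and 537 in Tet3-/-. Foxa2, a pioneer factor of endoderm and floor plate, was at 1443, 2636 and 2108 against 785 and 745, Gata4 at 1202, 1397 and 2467 against 442 and 701, and Sox7 of the parietal yolk sac at 432, 331 and 762 against 93.3 and 88.8. In all 4 genes each Tet3 m/m sample was above each Tet3-/- sample, with differences of -0.73, -1.39, -1.53 and -2.38 (adjusted p 0.0496, 0.00247, 0.00773 and 0.00733). The Tet3+/+ means, 1422 ± 272, 1588 ± 123, 1031 ± 148 and 191 ± 98.6, lay above the Tet3-/- mean in each. Spink1, a secreted protease inhibitor, had 0 reads in both Tet3-/- samples against 18.4, 45.5 and 71.3 normalised counts in Tet3 m/m (adjusted p 0.00202). Gata6, which stands upstream of Gata4 in extraembryonic endoderm and is also a cardiac factor, did not go with them: it was at 2219.6, 2199 and 2003 in Tet3 m/m against 2438 and 3864 in Tet3-/- (0.52, adjusted p 0.121). The summed level of the 23 genes was 29399.6 to 37730.2 in Tet3 m/m, 18588 and 20323 in Tet3-/- and 18358 to 20786 in Tet3+/+, with Mut samples above all others. In bulk RNA, fewer cells of a type and less RNA per cell cannot be told apart. Across fits without 1 sample, the lower DEGs ran from 14 (without WT1, WT2, WT3, Mut2, Mut3 or KO1) to 15 (without Mut1 or KO2). Not every call held without each sample, the exceptions being Sox17 (adjusted p up to 0.297 without WT1, WT2, WT3, Mut2, Mut3 or KO2) and Gata4 (adjusted p 0.0647 without KO1).

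Several genes of the undifferentiated state were lower in Tet3-/-, and their levels varied widely among Tet3 m/m clones. Of the pluripotency list, 0 of 27 tested genes were DEGs higher in Tet3-/- and 7 lower, with a median difference of -0.84, and 26 of the 27 differences were under 0. The 0 of limma stood beside 0 higher at an unadjusted p under 0.05, 0 by edgeR and 0 by DESeq2. Dppa5a, an RNA-binding protein of ESCs, was at 4418, 7511 and 9842 in Tet3 m/m against 2434 and 1487 in Tet3-/-. Dppa2, a chromatin factor of ESCs, was at 2495, 2081 and 2218 against 1653 and 613, and Tdh, the threonine dehydrogenase of mouse ESCs, at 405, 443 and 747 against 246 and 118. The genotypes did not overlap in the 3 genes (-1.86, -1.16 and -1.58, adjusted p 0.00658, 0.0357 and 0.0144), and KO2 was lowest in each. The core factors overlapped, with Pou5f1 (Oct4) at 672, 1733 and 2743 in Tet3 m/m against 1250.3 and 543 in Tet3-/- (-0.84, adjusted p 0.321), and Nanog at 1493, 2219 and 3760.5 against 1787 and 709 (-1.04, adjusted p 0.142). The summed level of the list was 51311 to 88475 in Tet3 m/m, 30796 and 42599 in Tet3-/- and 40145 to 49417 in Tet3+/+, and the number of lower DEGs ran from 1 (without KO2) to 11 (without Mut1), so this count rests on which clones enter. Leaving out 1 sample at a time ended the call of Dppa5a (adjusted p 0.0533 without KO2), Dppa2 (adjusted p up to 0.127 without WT1, WT2, WT3, Mut1, Mut2, Mut3 or KO2) and Tdh (adjusted p 0.0954 without KO2).

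Of germline genes held silent by promoter methylation, 9 of 23 were lower in Tet3-/- than in Tet3 m/m. In somatic cells these genes are methylated and bound by repressors that include E2F6 and the MGA and MAX pair. Promoters of some called members that hold the letters of such a repressor's site are shown first, because promoter methylation is what the list has in common. Each run is the 250 bases before the start of transcription, 5′ to 3′ on the gene's strand, from RefSeq on GRCm38.p6, with the letters CACGTG (the E-box that MGA and MAX bind, the same on both strands) in capitals for Taf7l and Ddx4, and TCCCGC or its reverse complement GCGGGA (the letters of an E2F6 site) in capitals for D1Pas1.
Taf7l, chrX:134476491-134476740, minus strand: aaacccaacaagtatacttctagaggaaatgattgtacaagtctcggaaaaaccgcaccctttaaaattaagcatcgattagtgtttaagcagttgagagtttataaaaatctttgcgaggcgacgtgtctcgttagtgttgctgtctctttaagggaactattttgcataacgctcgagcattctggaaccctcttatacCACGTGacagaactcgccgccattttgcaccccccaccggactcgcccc
Ddx4, chr13:112652311-112652560, minus strand: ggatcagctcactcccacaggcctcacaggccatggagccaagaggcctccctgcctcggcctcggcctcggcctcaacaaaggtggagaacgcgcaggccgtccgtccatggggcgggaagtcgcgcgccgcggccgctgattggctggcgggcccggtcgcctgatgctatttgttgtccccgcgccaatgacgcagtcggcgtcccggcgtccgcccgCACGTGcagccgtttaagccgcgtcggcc
D1Pas1, chr1:186967166-186967415, plus strand: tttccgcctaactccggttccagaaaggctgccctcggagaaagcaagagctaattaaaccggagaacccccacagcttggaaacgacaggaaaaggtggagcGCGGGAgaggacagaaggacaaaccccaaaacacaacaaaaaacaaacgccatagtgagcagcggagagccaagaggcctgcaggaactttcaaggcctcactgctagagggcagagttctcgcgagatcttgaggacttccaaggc

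The CACGTG letters begin 49 bases before the start in Taf7l and 29 bases before it in Ddx4, and the E2F6 letters 147 bases before it in D1Pas1. With 1 promoter taken per gene, 22 of the 23 tested germline genes matched an entry, and 12 of these (54.5%) held CACGTG and 9 (40.9%) held TCCCGC on either strand, against 6.02% and 16.9% of all 32851 promoters of this length. Of the 8 called members with an entry, 3 (37.5%) held CACGTG and 4 (50%) held TCCCGC, while Dazl, Sohlh2 and Sycp2 held neither. CACGTG was thus no more frequent in called members than in all tested ones. A match of letters is a description and does not show that a factor is bound.

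Of the germline list, 0 of 23 tested genes were DEGs higher in Tet3-/- and 9 lower, with a median difference of -1.17. Beside this 0 from limma stood 0 higher at an unadjusted p under 0.05, 0 by edgeR and 0 by DESeq2. D1Pas1, a testis RNA helicase, was at 706, 638 and 581 in Mut1 to Mut3 and 203 and 149 in KO1 and KO2. Taf7l, a testis form of a general transcription factor subunit, was at 316, 234 and 424 against 72.1 and 88.8. The RNA helicase Ddx4 (Vasa) was at 1672, 1322 and 1476 against 854 and 503, the germ cell RNA-binding protein Dazl at 313, 336 and 484 against 165 and 79.7, and the meiotic chromosome protein Sycp2 at 95.3, 144 and 101 against 6.36 and 43.3. Each Tet3 m/m sample was above each Tet3-/- sample in the 5 genes, with differences of -1.87, -1.97, -1.18, -1.68 and -2.64 (adjusted p 0.00159, 0.00737, 0.0123, 0.0204 and 0.0333). The Tet3+/+ means of 165 ± 45.4, 63.7 ± 27.6, 519 ± 128, 175 ± 79.4 and 18.1 ± 8.63 were under every Tet3 m/m value of the gene. The summed level of the list was 7719.9 to 9236 in Tet3 m/m, 3552 and 4381 in Tet3-/- and 3590.0 to 4571 in Tet3+/+, and with 1 sample left out its lower DEGs ran from 6 (without Mut2, Mut3 or KO2) to 11 (without Mut1). The called pluripotency genes, a class that ESCs share in part with germ cells, were lower as well, and their part in this result was not tested. The test was no longer passed on leaving out 1 sample by Ddx4 (adjusted p 0.0856 without KO2), Dazl (adjusted p up to 0.13 without Mut2, Mut3 or KO2) and Sycp2 (adjusted p up to 0.202 without WT1, Mut2, Mut3 or KO1).

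Early mesoderm factors did not move together. Of the primitive streak and early mesoderm list, 2 of 22 tested genes were DEGs higher in Tet3-/- and 3 lower, with a median difference of -0.33. That is 22.7% called, beside 9.73% over all genes. The streak factors T, at 32.8, 71.7 and 52.95 in Tet3 m/m against 2.12 and 34.2 in Tet3-/-, and Mixl1, at 54.3, 20.2 and 62.1 against 25.5 and 15.9, were not called (-2.28 and -0.99, adjusted p 0.0961 and 0.34). Fgf8, a growth factor of the streak and of the midbrain-hindbrain border, was at 33.8, 38.8 and 59.1 in Tet3 m/m against 0 and 2.28 in Tet3-/- (adjusted p 0.00265), and Nodal, the TGF-beta ligand that induces mesendoderm, at 1145, 1085 and 1644 against 617 and 499 (-1.19, adjusted p 0.00385). With Snai1, the repressor of epithelial genes (-0.80, adjusted p 0.0176), these were the 3 genes lower in Tet3-/-. Wnt3, at 414, 195 and 219 against 634 and 824, and Foxc2, a paraxial mesoderm factor of chromosome 8, at 457, 481 and 688 against 1243 and 1682, were higher (1.47 and 1.44, adjusted p 0.0191 and 0.00558). Hand1, of lateral mesoderm and trophoblast, was at 195, 266 and 187 against 208 and 323 (0.28, adjusted p 0.565). Calls that rest on single samples were those of Snai1 (adjusted p up to 0.116 without Mut2 or KO1) and Wnt3 (adjusted p up to 0.105 without Mut2, KO1 or KO2).

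Cardiac genes included 6 higher and 2 lower of 32 tested, with a median difference of 0.34. Myl4, an atrial myosin light chain of the embryo, was at 49.2, 79.2 and 56.01 in Tet3 m/m against 155 and 385 in Tet3-/-, while Myl7, another atrial light chain, was at 186, 194 and 249 against 83.8 and 112. The 2 light chains thus went in opposite directions (2.002 and -1.10, adjusted p 0.00932 and 0.0446). The calcium channel subunit Cacna1c (1.26, adjusted p 0.0117), the calcium-binding protein of the muscle reticulum Hrc (1.20, adjusted p 0.0237) and the membrane-shaping protein Bin1, at 3779.6, 3398 and 2719.8 against 5371 and 5795 (0.77, adjusted p 0.00966), were higher. Cacna1c lies on chromosome 6, outside the shifted segment. With 1 sample left out, the higher DEGs ran from 2 (without KO2) to 9 (without Mut1). Not every call held without each sample, the exceptions being Myl4 (adjusted p 0.0661 without KO2), Myl7 (adjusted p up to 0.206 without WT1, Mut2, Mut3, KO1 or KO2), Cacna1c (adjusted p 0.0844 without KO1), Hrc (adjusted p up to 0.136 without Mut3 or KO2) and Bin1 (adjusted p 0.0564 without KO2).

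Vascular genes went both ways, with the SoxF factors and Flt4 lower and Cdh5, Cldn5 and Cav1 higher in Tet3-/-. Of the list, 5 of 33 tested genes were DEGs higher in Tet3-/- and 5 lower, with a median difference of 0.15. The SoxF factors, which specify endothelium, were lower. Sox18 was at 277, 428 and 385 in Tet3 m/m against 63.6 and 34.2 in Tet3-/- (-2.91, adjusted p 0.000611), and Sox7 and Sox17, which also stand in the endoderm list, were given above. The lymphatic receptor Flt4 was lower too, at 774, 946 and 827 against 331 and 495 (-1.06, adjusted p 0.00683). The endothelial cadherin Cdh5 was at 30.7, 24.4 and 30.5 in Tet3 m/m against 284 and 175 in Tet3-/-, the tight junction claudin Cldn5 at 10.2, 28.7 and 10.2 against 95.4 and 52.4, and the caveolar coat protein Cav1 at 43.02, 32.04 and 24.4 against 259.8 and 155. These 3 were higher in both Tet3-/- samples (2.93, 2.21 and 2.60, adjusted p 0.000396, 0.0247 and 0.00679), Cdh5 lying on chromosome 8 (median of the genes around it 0.28) and Cav1 in the chromosome 6 segment (0.51). Cdh5 in Tet3-/- was under its Tet3+/+ mean of 378 ± 49.1, and Cav1 above its mean of 65.8 ± 31.04. The receptor Kdr (0.22, adjusted p 0.671) and the adhesion molecule Mcam, at 4140.1, 2777 and 2074 against 4715 and 4480.1 (0.67, adjusted p 0.102), overlapped or missed the threshold. Leaving out 1 sample at a time ended the call of Cldn5 (adjusted p up to 0.154 without Mut3 or KO1) and Cav1 (adjusted p 0.0585 without KO1).

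Several collagens and other matrix genes were higher in Tet3-/-. Of the matrix list, 11 of 37 tested genes were DEGs higher in Tet3-/- and 3 lower, with a median difference of 0.51. Col1a1 was at 8691, 5729.6 and 4049 in Mut1 to Mut3 and 21860.0 and 27189 in KO1 and KO2, Col3a1 at 5139.8, 2953 and 1969 against 14242 and 12878, and Col12a1 at 7147, 3788 and 2996 against 15633 and 14164. These encode fibrillar collagens I and III and the fibril-associated collagen XII. Tet3-/- was above all Tet3 m/m and, for these 3 genes, above the Tet3+/+ means of 10318 ± 3288, 5843 ± 1774 and 6119 ± 1626, and the differences were 2.06 (SE 0.30, adjusted p 0.00243), 2.12 (SE 0.34, adjusted p 0.00369) and 1.78 (SE 0.32, adjusted p 0.00615). Col1a2, the partner chain of Col1a1 in collagen I, did not differ detectably (0.23, adjusted p 0.49, 95% interval -0.21 to 0.68). Lama1, the laminin chain of early basement membranes, was at 10979, 9465 and 23376 against 4087 and 4181, lower in Tet3-/- (-1.70, adjusted p 0.0115), as were the fibulin gene Fbln1 (-1.01, adjusted p 0.00171) and Col6a2 (-0.88, adjusted p 0.0265). Collagens are also fibroblast markers, and the ESCs had been grown on feeder fibroblasts, which the study's methods removed by pre-plating before differentiation on gelatin. Of the fibroblast list, 3 of 15 tested genes were DEGs higher in Tet3-/- and 0 lower, with a median difference of 0.25. The 3 called genes were Col1a1, Col3a1 and the crosslinking enzyme gene Lox (1.41, adjusted p 0.0418), all of which also stand in the matrix list, while the fibroblast marker Thy1 was at 183, 166 and 124 against 124 and 100.2 and Dcn at 264, 403 and 316 against 579 and 271, with neither called (-0.48 and 0.29, adjusted p 0.278 and 0.556). Set against the limma count of 0 were 1 lower at an unadjusted p under 0.05, 0 by edgeR and 1 by DESeq2. The part of fibroblasts in the collagen levels was not tested. As single samples were left out, the higher matrix DEGs ran from 6 (without KO1 or KO2) to 17 (without Mut1). The test was no longer passed on leaving out 1 sample by Lama1 (adjusted p up to 0.0619 without KO1 or KO2), Col6a2 (adjusted p up to 0.118 without Mut2, KO1 or KO2) and Lox (adjusted p up to 0.227 without WT2, Mut2, Mut3, KO1 or KO2).

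Genes of contractile actin and targets of the YAP and TEAD pair, which answer to tension on the cell, had differences above 0 nearly throughout but seldom passed the test. Of the actin and SRF list, 4 of 33 tested genes were DEGs higher in Tet3-/- and 1 lower, with a median difference of 0.48, with 31 of 33 differences above 0. Acta2, smooth muscle actin, was at 54762, 35831 and 19544 in Tet3 m/m against 90774 and 101009 in Tet3-/-, and Myl9 at 6279.8, 5613 and 4255 against 9258 and 10522. The genotypes did not overlap but neither gene passed, with differences of 1.51 (SE 0.51, adjusted p 0.0791) and 0.89 (SE 0.30, adjusted p 0.0757). The actin-binding proteins Cald1, at 19066, 13935 and 10109 against 44374 and 49509.9, and Zyx, at 3900.4, 3917 and 3094 against 10202 and 12572, passed (1.754 and 1.65, adjusted p 0.00267 and 0.000844). Both lie in the chromosome 6 segment, where the genes around them had medians of 0.92 and 0.82. Lmod1, an actin nucleator of smooth muscle, was higher (1.23, adjusted p 0.0163) and the myosin kinase Mylk lower (-1.35, adjusted p 0.0192). Of the YAP-TEAD targets, 4 of 19 tested genes were DEGs higher in Tet3-/- and 1 lower, with a median difference of 0.34. The receptor kinase Axl, at 3204, 2380.0 and 1311 against 5515 and 5705 (1.38, adjusted p 0.0143), Tgfb2, at 3022, 1743 and 1392 against 5213 and 4769 (1.36, adjusted p 0.0208), and Crim1 (0.96, adjusted p 0.0115) were higher and the nucleotidase Nt5e lower (-0.93, adjusted p 0.047), but the classic targets Ccn1 and Ccn2 were not called (0.17 and 0.59, adjusted p 0.493 and 0.241). Over the leave-one-out fits, the higher DEGs of the actin list ran from 2 (without KO1) to 11 (without Mut1), and those of the YAP-TEAD list from 0 (without KO1) to 6 (without Mut1). Calls that rest on single samples were those of Lmod1 (adjusted p up to 0.0799 without KO1 or KO2), Mylk (adjusted p 0.11 without KO1), Axl (adjusted p up to 0.0675 without KO1 or KO2), Tgfb2 (adjusted p up to 0.103 without Mut2, KO1 or KO2), Crim1 (adjusted p up to 0.0589 without KO1 or KO2) and Nt5e (adjusted p up to 0.288 without WT1, WT2, WT3, Mut1, Mut2, Mut3 or KO1).

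The Wnt ligand genes Wnt3, Wnt6 and Wnt10a were higher in Tet3-/- and Wnt5b was lower, while the feedback target Axin2 overlapped. Of the Wnt list, 11 of 53 tested genes were DEGs higher in Tet3-/- and 6 lower, with a median difference of 0.02. Wnt6 was at 2252, 2117 and 1148 in Tet3 m/m against 5884 and 5395 in Tet3-/-, and Wnt10a at 108, 55.6 and 38.7 against 208 and 202. With Wnt3, all 3 ligand genes were higher in both Tet3-/- samples (1.68 and 1.72, adjusted p 0.00246 and 0.0178), Wnt3 and Wnt10a also against the Tet3+/+ values, which were 385, 252 and 208 for Wnt3 and 142, 101 and 113 for Wnt10a. Axin2, which canonical Wnt signalling induces, was at 2122, 2146 and 1826 against 2035 and 2204 (0.06, adjusted p 0.747, 95% interval -0.18 to 0.30). The secreted antagonists split, with Sfrp1 of chromosome 8 at 2199, 2324 and 2783 in Tet3 m/m against 9193 and 9244 in Tet3-/- (1.93, adjusted p 0.000269) and Sfrp5 at 604, 643 and 1900.1 against 140.0 and 255 (-2.25, adjusted p 0.0089), whereas Sfrp4 did not pass (0.27, adjusted p 0.794). The noncanonical ligand Wnt5b (-1.42, adjusted p 0.00361) and the agonist Rspo1 (-1.12, adjusted p 0.0198) were lower. Across fits without 1 sample, the higher DEGs ran from 4 (without KO2) to 12 (without Mut1). Not every call held without each sample, the exceptions being Wnt10a (adjusted p up to 0.0801 without Mut2, KO1 or KO2), Sfrp5 (adjusted p 0.0724 without KO1), Rspo1 (adjusted p up to 0.0799 without Mut2, Mut3, KO1 or KO2) and Wnt3 (adjusted p up to 0.105 without Mut2, KO1 or KO2).

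In the BMP, Nodal and TGF-beta list, 5 of 39 tested genes were DEGs higher in Tet3-/- and 4 lower, with a median difference of -0.02. Ligands of the activin and TGF-beta kind were higher, with Inhba at 164, 74.2 and 26.5 in Tet3 m/m against 348 and 453 in Tet3-/- (2.51, adjusted p 0.0193) besides Tgfb2, as was Ltbp3, which stores latent TGF-beta in the matrix (0.76, adjusted p 0.0333). Nodal and its feedback inhibitor Lefty2, at 484, 698 and 1061 against 393 and 153, were lower (-1.53, adjusted p 0.0289), and so was the activin inhibitor Fst (-0.90, adjusted p 0.00835). Bmp2 and Bmp4 were not called (-0.24 and -0.02, adjusted p 0.448 and 0.956). Of the RA pathway, which the treatment engages in every sample, 1 of 24 tested genes were DEGs higher in Tet3-/- and 2 lower, with a median difference of 0.01. That is 12.5% called, beside 9.73% over all genes. The receptor gene Rarb, at 2156, 2244 and 2024 against 2409 and 2506, and the RA-degrading enzyme gene Cyp26a1, at 11538, 12660.5 and 15454 against 8312 and 11182, were not called (0.20 and -0.44, adjusted p 0.325 and 0.103). Cyp26c1, a related enzyme, was lower in Tet3-/- (-1.06, adjusted p 0.0105), as was the retinal reductase gene Dhrs3, at 5449, 5398 and 7014 against 3722 and 3437 (-0.72, adjusted p 0.0049), and the nuclear receptor Nr2f1 was higher (0.65, adjusted p 0.00468). Leaving out 1 sample at a time ended the call of Inhba (adjusted p up to 0.0959 without Mut2, KO1 or KO2), Ltbp3 (adjusted p up to 0.21 without WT2, Mut2, Mut3 or KO2), Lefty2 (adjusted p up to 0.18 without Mut2, Mut3 or KO2), Fst (adjusted p 0.0542 without KO2) and Cyp26c1 (adjusted p 0.0742 without KO1).

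Hox genes, which give cells their position along the body axis and answer to RA, had 4 of their 8 calls in the cluster on chromosome 6. Of the list, 6 of 34 tested genes were DEGs higher in Tet3-/- and 2 lower, with a median difference of 0.08. That is 23.5% called, beside 9.73% over all genes. Of the 6 higher genes, 4 belong to the Hoxa cluster, which lies in the shifted segment. Hoxa2 was at 193, 212 and 250.5 in Tet3 m/m against 696 and 849 in Tet3-/-, Hoxa3 at 1136, 993 and 1197 against 2440.1 and 3204, and Hoxa4 at 492, 525 and 547 against 1284 and 2124. Their differences of 1.82, 1.34 and 1.66 (adjusted p 0.000486, 0.000655 and 0.000929) stood against a median of 0.87 to 0.88 for the 100 genes around them. Of the Hoxb cluster, Hoxb1, of the hindbrain, was at 3605, 3577 and 3374 against 2204 and 1573 (-0.92, adjusted p 0.00247), and Hoxb13 at 735, 619 and 534 against 344 and 442 (-0.68, adjusted p 0.0446), both lower in Tet3-/-. With chromosomes 6 and 8 left out, 2 Hox genes were higher and 2 lower. The test was no longer passed on leaving out 1 sample by Hoxb13 (adjusted p up to 0.235 without WT1, WT2, WT3, Mut1, Mut2, KO1 or KO2).

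Several inhibitors of cyclin-dependent kinases were higher in Tet3-/-, and no replication gene was called. Of the list of these inhibitors and cyclins, 6 of 22 tested genes were DEGs higher in Tet3-/- and 0 lower, with a median difference of 0.25. The 0 of limma stood beside 1 lower at an unadjusted p under 0.05, 0 by edgeR and 0 by DESeq2. Cdkn1c (p57), which is also imprinted, was at 4952, 5788 and 6140.2 in Tet3 m/m against 11304 and 10859 in Tet3-/-, near the 10647 ± 943 of Tet3+/+. Cdkn1a (p21) was at 10669, 8097 and 6036 against 14713 and 15605, and Cdkn2a (p16 and p19) at 2062, 2184 and 1503 against 3071 and 3485. In the latter 2 genes Tet3-/- was also above the Tet3+/+ means of 9323 ± 988 and 2316 ± 312. The differences were 0.98 (SE 0.12, adjusted p 0.00078), 0.91 (SE 0.19, adjusted p 0.0128) and 0.79 (SE 0.17, adjusted p 0.0135), and Cdkn2b (p15) missed the threshold (0.98, adjusted p 0.0994). The cyclin Ccnd2, on chromosome 6 outside the segment, was higher too (0.96, adjusted p 0.000962). Of 28 DNA replication genes, 0 were called in either direction, among them Pcna (-0.10, adjusted p 0.605) and Mcm2 (-0.26, adjusted p 0.187). Beside this 0 from limma stood 0 higher at an unadjusted p under 0.05, 0 by edgeR and 0 by DESeq2 and 5 lower at an unadjusted p under 0.05, 0 by edgeR and 0 by DESeq2. Of the p53 list, 4 of 23 tested genes were DEGs higher in Tet3-/- and 0 lower, with a median difference of 0.37. Set against the limma count of 0 were 1 lower at an unadjusted p under 0.05, 0 by edgeR and 0 by DESeq2. The pro-apoptotic Pmaip1 (Noxa) was at 2766, 1602 and 1332 in Tet3 m/m against 4124 and 3648 in Tet3-/- (1.10, adjusted p 0.0155), Perp at 7775, 4713 and 3373 against 11547 and 10392 (1.14, adjusted p 0.0275), and the kinase Plk2 at 14557, 9716 and 6233 against 18961 and 20901 (1.05, adjusted p 0.0338). Trp53 itself and its inhibitor Mdm2 were not called (-0.19 and 0.53, adjusted p 0.242 and 0.127). Calls that rest on single samples were those of Pmaip1 (adjusted p up to 0.0896 without Mut2 or KO1), Perp (adjusted p up to 0.129 without Mut2, KO1 or KO2), Plk2 (adjusted p up to 0.132 without WT3, Mut2, KO1 or KO2), Cdkn1a (adjusted p up to 0.0668 without KO1 or KO2) and Cdkn2a (adjusted p 0.0793 without KO2).

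Several genes of placental cells were higher in Tet3-/-. Of the trophoblast and keratin list, 7 of 19 tested genes were DEGs higher in Tet3-/- and 0 lower, with a median difference of 0.87. The 0 of limma stood beside 1 lower at an unadjusted p under 0.05, 0 by edgeR and 1 by DESeq2. Rhox6, a homeobox gene of placenta and germ cells on chromosome X, was at 379, 487 and 222 in Tet3 m/m against 1625 and 3006 in Tet3-/- (2.68, adjusted p 0.000746), and Ascl2, an imprinted bHLH factor of the placenta, at 43.02, 48.9 and 48.9 against 95.4 and 121 (1.18, adjusted p 0.0221). Tpbpa, a marker of spongiotrophoblast, had 0 reads in all Tet3 m/m samples and 6.36 and 22.8 normalised counts in Tet3-/- (adjusted p 0.00989). Tet3+/+ had 1664 ± 131 for Rhox6, 109.8 ± 9.96 for Ascl2 and 37.2 ± 3.73 for Tpbpa, the last above both Tet3-/- samples. The trophoblast stem cell factors Cdx2, at 71.7, 129.8 and 179 against 63.6 and 43.3, and Elf5, at 18.4, 13.5 and 6.11 against 25.5 and 44.4, were not called (-1.16 and 1.46, adjusted p 0.101 and 0.219). Not every call held without each sample, the exceptions being Ascl2 (adjusted p up to 0.105 without Mut2 or KO2) and Tpbpa (adjusted p 0.0703 without KO2).

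Imprinted genes, which are read from 1 parental copy because of methylation set in the germ line, were higher more often than lower. Of those outside chromosome 6, 6 of 32 tested genes were DEGs higher in Tet3-/- and 2 lower, with a median difference of 0.37. Igf2, a growth factor of chromosome 7, was at 5516, 7508 and 9083 in Tet3 m/m against 24559.9 and 29841 in Tet3-/-, and Dlk1, of chromosome 12, at 5836, 5354 and 4879 against 11919 and 13390.2. Tet3-/- was near Tet3+/+ in both (21453 ± 3834 and 14748 ± 2421), with differences of 1.91 (SE 0.20, adjusted p 0.000478) and 1.24 (SE 0.14, adjusted p 0.000557). H19, the reciprocally imprinted neighbour of Igf2, was at 78052, 75251 and 10191 against 19088 and 30555, so that a single clone, Mut3, lay under Tet3-/- and the other 2 above it (-0.70, adjusted p 0.551). Magel2 (-1.46, adjusted p 0.00373) and Zim1 (-0.62, adjusted p 0.0312) were lower. Of the imprinted genes of chromosome 6, 4 of 12 tested genes were DEGs higher in Tet3-/- and 0 lower, with a median difference of 0.14. Beside this 0 from limma stood 3 lower at an unadjusted p under 0.05, 0 by edgeR and 1 by DESeq2. Nap1l5, in the shifted segment, was at 0, 1.69 and 0 in Tet3 m/m against 129 and 38.7 in Tet3-/- (adjusted p 0.00148), Calcr at 113, 79.2 and 83.5 against 178 and 629.6 (1.87, adjusted p 0.025), and Peg10 overlapped (0.42, adjusted p 0.215). The 250 bases before a start of Mest, the gene with the smallest adjusted p of all, are given with their 14 CpG sites, the bases that methylation acts on, in capitals (RefSeq, GRCm38.p6). Methylation at Mest was not tested here. Leaving out 1 sample at a time ended the call of Zim1 (adjusted p up to 0.211 without WT1, Mut1, Mut2, Mut3 or KO1) and Calcr (adjusted p up to 0.15 without Mut2, Mut3 or KO2).
Mest, chr6:30737800-30738049, plus strand: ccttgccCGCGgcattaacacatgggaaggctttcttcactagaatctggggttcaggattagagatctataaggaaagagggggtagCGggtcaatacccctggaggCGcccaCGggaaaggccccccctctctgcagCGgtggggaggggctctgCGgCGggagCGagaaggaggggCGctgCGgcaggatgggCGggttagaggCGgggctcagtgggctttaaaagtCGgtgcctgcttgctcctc

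**Figure D4:**
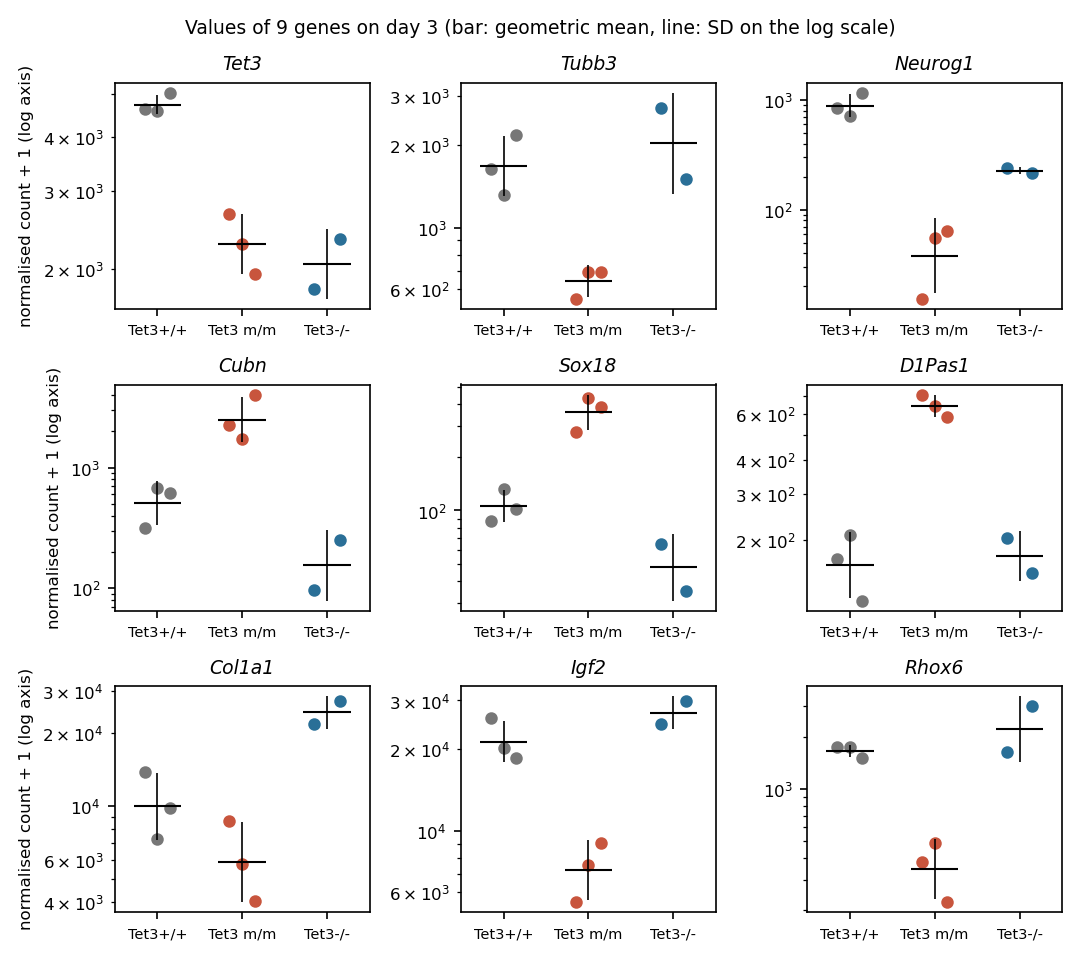
Normalised counts + 1 (log axis) of 9 genes in each sample (points), by genotype, with the geometric mean (horizontal bar) and the SD on the log scale (vertical line); n is 3, 3 and 2. Tet3 overlaps between the mutants, Tubb3, Neurog1, Col1a1, Igf2 and Rhox6 are higher in both Tet3-/- samples than in any Tet3 m/m sample, and Cubn, Sox18 and D1Pas1 are lower.

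Among interferon and antigen presentation genes, 4 of 23 tested genes were DEGs higher in Tet3-/- and 1 lower, with a median difference of 0.38. Rsad2 (viperin) was at 2.05, 8.43 and 6.11 in Tet3 m/m against 33.9 and 54.6 in Tet3-/- (2.90, adjusted p 0.0123), Tap1, of the peptide transporter, was higher (1.01, adjusted p 0.00318), as was Tapbp (0.77, adjusted p 0.0354), while Ifitm1, which ESCs also express, was lower, at 871, 1151 and 3228 against 345 and 244 (-2.35, adjusted p 0.0089) and B2m overlapped (0.50, adjusted p 0.249). Of genes for sterol and fatty acid synthesis, 5 of 25 tested genes were DEGs higher in Tet3-/- and 0 lower, with a median difference of 0.35, and 24 of 25 differences were above 0. Set against the limma count of 0 were 0 lower at an unadjusted p under 0.05, 0 by edgeR and 0 by DESeq2. The called ones, among them Scd1 (0.64, adjusted p 0.0217), Cyp51 (0.66, adjusted p 0.0338) and Mvd (0.70, adjusted p 0.0454), differed little in size. Of glycolysis and hypoxia genes, 2 of 21 tested genes were DEGs higher in Tet3-/- and 0 lower, with a median difference of -0.13. That is 9.52% called, beside 9.73% over all genes. The 0 of limma stood beside 0 lower at an unadjusted p under 0.05, 0 by edgeR and 0 by DESeq2. Ndrg1, a stress gene, was at 179, 182 and 114 against 498 and 625 (1.84, adjusted p 0.00135), Hk2 lies in the chromosome 6 segment (0.73, adjusted p 0.00082), and the glucose transporters Slc2a1 and Slc2a3 overlapped (0.05 and -0.38, adjusted p 0.85 and 0.367). With 1 sample left out, the higher sterol DEGs ran from 0 (without Mut3 or KO1) to 8 (without KO2). The test was no longer passed on leaving out 1 sample by Rsad2 (adjusted p 0.0758 without KO2), Tapbp (adjusted p up to 0.224 without WT2, WT3, Mut2, Mut3 or KO2), Ifitm1 (adjusted p 0.0605 without KO2), Scd1 (adjusted p up to 0.154 without Mut3 or KO1), Cyp51 (adjusted p up to 0.221 without WT1, Mut2, Mut3 or KO1) and Mvd (adjusted p up to 0.265 without WT1, WT2, WT3, Mut1, Mut3 or KO1).

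The study's own lists behind its functional terms were chosen on these samples, from the comparisons of each mutant with Tet3+/+, so their counts are a description and no independent evidence. Of the genes behind sarcolemma, 6 of 19 were higher in Tet3-/- than in Tet3 m/m, and of those behind heart development 11 of 29 were higher and 3 lower. Of those behind angiogenesis, 6 of 32 were higher and 3 lower. Over all genes tested, 5.41% were higher and 4.33% lower. The medians of the 3 lists were 0.84, 0.61 and 0.56. Of the genes behind nervous system development, 7 of 26 were higher (median 0.43), and of those behind regulation of neurogenesis, 7 of 44 were higher and 2 lower (median 0.29). For cell fate commitment, 3 of 23 were higher and 3 lower (median 0.07). Of the 23 genes that the study names for their RNA level, 5 were higher, Wnt10a, Hrc, Cdkn1a, Cdkn2a and Bin1, and 1 was lower, Dnmt3b, whereas Pdik1l (-0.28, adjusted p 0.204) and Sox5 (0.19, adjusted p 0.682) were not called.

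The same genotypes could also be compared in samples that the day 3 test did not use. In an experiment on Dnmt1, cells of each genotype were transfected with an empty vector, with 2 samples each of Tet3-/- and Tet3 m/m at 31155842 to 50245295 reads; by the labels they too were NE cells, and whether the 2 samples are separate clones is not stated. There, 7141 of 18055 genes were DEGs (39.6%), 3418 higher in Tet3-/- (18.9%) and 3723 lower (20.6%). Replicates of this experiment differed less, with a chi-square of the recovered reads, per gene and between 2 samples, of 4.22 for Tet3 m/m and 4.69 for Tet3-/-, against 36.3 to 96.3 and 44.8 on day 3. Its adjusted p-values and number of DEGs may therefore not measure the spread between clones. Of the 946 day 3 DEGs higher in Tet3-/- that this table holds, 894 (94.5%) were also higher there, and of 770 lower ones 702 (91.2%) were also lower, where 50.6% of all genes of both tables were higher. As DEGs in the same direction, 758 higher genes were shared, which is 78.2% of the day 3 list and 22.2% of the other, and 593 lower genes, 76.5% and 15.9%. Outside chromosomes 6 and 8 the direction held for 93.6% and 90.9%. The empty-vector Tet3 m/m samples stood apart from those of day 3, with Pou5f1 at 12155 and 11920.3 against 567 and 577 in Tet3-/-, where day 3 Tet3 m/m had 672, 1733 and 2743. Nanog was at 14643 and 14297 against 526 and 567, and Nr2f1, the nuclear receptor induced by RA, at 210.2 and 220.1 against 5576 and 5308. The part of this difference in the shared directions was not tested. The experiment on the TET3 catalytic domain had 1 empty-vector sample per genotype and so no test. By the study's methods its cells were transfected during differentiation and collected after day 3. The direction held in it for 676 of 948 higher genes (71.3%) and 581 of 752 lower ones (77.3%), with 50.8% of all genes higher. Outside chromosomes 6 and 8 it held there for 396 of 636 higher genes (62.3%) and 551 of 717 lower ones (76.8%).

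By group, the empty-vector samples of the Dnmt1 experiment had a median difference of -2.62 for endoderm genes, -3.76 for pluripotency genes and -2.87 for germline genes, all lower in Tet3-/- as on day 3. Germline genes had 24 lower DEGs of 25 tested and pluripotency genes 25 of 27, where 20.6% of all genes were lower. Proneural and Notch genes had a median of 1.02 with 16 of 26 tested higher and 3 lower, where 18.9% of all genes were higher. The median of trophoblast genes was 2.62. Neuronal genes were less uniform, with 12 of 31 tested higher and 8 lower, beside 18.9% and 20.6% of all genes. Their median was 0.36. Tubb3 was not called (0.21, adjusted p 0.0601), while Dcx was higher (4.99, adjusted p 1.09e-08). The actin and SRF list stood at 1.29, with 27 of its 33 genes higher. Tet3 itself differed there, at 1125 and 964 in Tet3 m/m against 2520.3 and 2571 in Tet3-/- (1.29, adjusted p 3.43e-12), as did Tet1, at 5799.8 and 5885 against 1594 and 1860.0 (-1.76, adjusted p 5.19e-13). With the empty vector of the catalytic domain experiment, the list medians were 0.14 for endoderm, -0.71 for pluripotency, -0.79 for germline, 0.93 for proneural and Notch, 1.61 for trophoblast and -0.87 for actin and SRF genes. The neuronal median there was 0.15, beside 0.01 over all genes, with Tubb3 at 0.15 and Dcx at 2.04. The endoderm and actin lists thus did not hold their direction in that experiment, whose cells were collected later. Nor did the YAP-TEAD, p53, extracellular matrix and vascular lists, with medians of -0.63, -0.49, -0.19 and -0.77. Of the study's terms given above, sarcolemma, heart development and angiogenesis went under 0 too, at -0.68, -0.55 and -0.545. In the Dnmt1 experiment they stood at 1.32, 1.44 and 0.86. Nervous system development, regulation of neurogenesis and cell fate commitment stayed above 0 in the catalytic domain experiment, at 1.21, 0.24 and 0.37. Many genes called on day 3 turned as well. Examples are Col1a1 (-0.51), Cdkn1a (-0.80), Wnt10a (-1.31), Wnt3 (-2.90), Bin1 (-0.74), Wnt6 (-0.77), Tgfb2 (-1.74), Inhba (-2.96) and Cav1 (-2.33). Of the 6 largest falls, Srgn (0.25), Cubn (0.14) and Hkdc1 (0.39) turned. Khdc3 (-1.15), Pla2g1b (-1.91) and Acan (-1.70) did not.

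**Figure D5:**
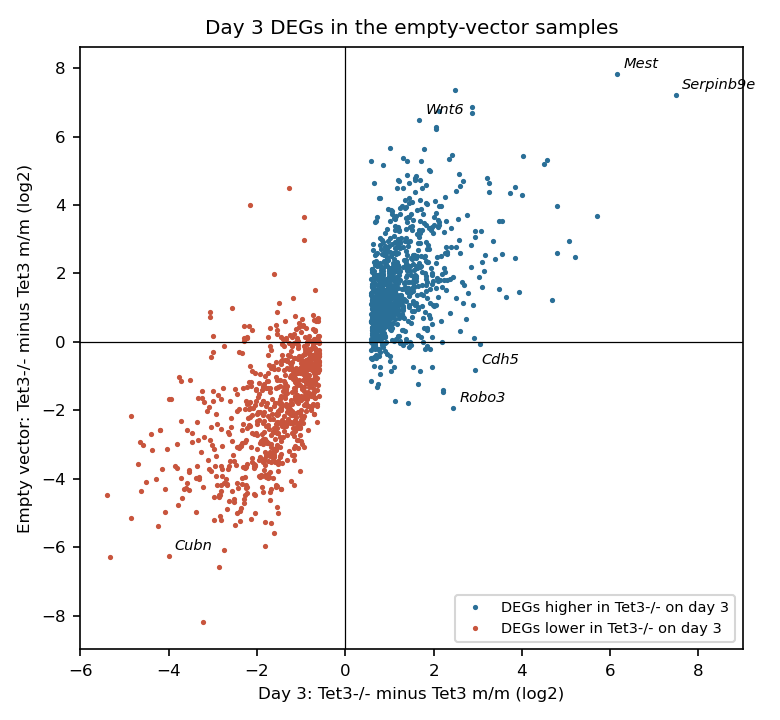
Difference between Tet3-/- and Tet3 m/m (log2) in the empty-vector samples of the Dnmt1 experiment (y axis, 2 samples a genotype) against that on day 3 (x axis), for each day 3 DEG found in both tables (points; blue higher, red lower in Tet3-/- on day 3). Of the 946 blue points 894 lie above 0 and of the 770 red points 702 below it, and Cdh5 and Robo3 are among those that cross.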

How the data were processed

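RNA-seq was analysed from 2 Tet3-/- and 3 Tet3 m/m samples, with 3 Tet3+/+ samples in the same model. The authors trimmed reads with Trim Galore (0.6.7), aligned them with STAR (2.7.9a), counted them per gene with featureCounts and deposited counts divided by DESeq2 size factors, a normalised signal. The methods give the mm39 genome and the labels mm10. Whole reads could be recovered from the deposited steps. limma (3.58.1) was run with an intensity trend on log2(value + 1) for genes with a mean of at least 10, with Benjamini-Hochberg adjustment. edgeR (4.0.16) and DESeq2 (1.42.0) on recovered reads, other pseudocounts and filters, TMM rescaling, a replicate block, and fits without single samples or chromosomes 6 and 8 were alternatives. The scripts were tested on simulated data. Named genes were the 6 largest rises and falls among DEGs with a mean of at least 100 whose genotypes did not overlap, leaving out predicted genes, up to 3 called members of each list in each direction and its first 2 members, genes the study names, and the Tet genes, and a few of these are not reported here. The comparison, members and lists were chosen with earlier results of these data known. Depth per sample is given as recovered reads. On day 3 replicates are clones by the study's methods, so p-values measure the spread between clones. A shift that all Tet3 m/m clones share, as in the chromosome 6 segment, is not part of that spread. For the Dnmt1 experiment this is not stated, so its p-values may measure a smaller spread. Chromosomes and promoters came from GENCODE and RefSeq tables of GRCm38.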

Additional observations from a re-analysis of the deposited data

Results flagged for a closer look

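A few of the named genes that passed the test on day 3 differed in the opposite direction with the empty vector of the Dnmt1 experiment. Every sample of each experiment was on its own side. Over all day 3 DEGs, 18 higher and 18 lower ones were DEGs in the opposite direction there. The difference between the experiments itself was not tested. Robo3, the commissural axon receptor, was higher in Tet3-/- by 2.44 (log2) on day 3 and stood at -1.93 with the empty vector, and the endothelial junction genes Cdh5 and Cldn5 went from 2.93 to -0.83 and from 2.21 to -1.42. Pmaip1, the p53 target, went from 1.10 to -0.74. In the other direction, Hoxb13 went from -0.68 to 1.504, the retinal reductase gene Dhrs3 from -0.72 to 0.80 and the imprinted gene Zim1 from -0.62 to 0.70. In the catalytic domain experiment, with 1 empty-vector sample per genotype, Robo3 (2.56) and Cdh5 (4.33) lay on the side of day 3. So did Hoxb13 (-1.08), Dhrs3 (-0.91) and Zim1 (-0.35), while Pmaip1 (-1.30) did not and Cldn5 had no value. The vector, its transfection, the blasticidin selection and the clones used cannot be told apart between day 3 and the Dnmt1 experiment.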

How the results depend on the processing

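The 1744 DEGs of Tet3-/- against Tet3 m/m lay between 1152 and 2219 as single samples were left out, with 651 to 1275 higher, and 471 (without Mut2) to 944 lower, and with 514 lower without Mut3. With Tet3-/- and Tet3 m/m alone in the model, 1157 were called, 624 of them higher and 533 lower. Leaving out chromosomes 6 and 8 left 1356 DEGs, of which 642 were higher and 714 lower, so that 47.3% were higher in place of 55.6%, by construction of fewer genes of chromosome 6. DESeq2 on the recovered reads called 2315 and edgeR 1653. The 208 called members of the gene lists became 138 without KO2, and 138 to 257 over the samples left out. The cause of these shifts was not tested. The number of empty-vector DEGs stayed within 1.5 times of its value in every alternative run. Replicate numbers showed no clear pairing of Tet3-/- with the other genotypes (correlations of deviations between same-numbered samples from -0.098 to 0.06). With only KO1 and KO2, whose deviations mirror each other, this check is weak, and Tet3 m/m was not set against Tet3+/+. With the replicate block 1521 DEGs were called, 859 higher and 662 lower. Over all alternatives run for the named genes, 2740 values kept their direction and side of the threshold, 253 lost the call, 19 gained it and 23 changed sign, all of the last in genes not called. Their differences over the samples left out were Axin2 -0.0109 to 0.12, Bmp4 -0.19 to 0.10, Dcn -0.25 to 0.84, Dnmt1 -0.0145 to 0.18, Dnmt3a -0.0367 to 0.0552, Hand1 -0.0377 to 0.60, Hes5 -0.22 to 2.02, Kdr -0.0400 to 0.49, Sfrp4 -0.0251 to 0.52, Slc2a1 -0.15 to 0.26, Sox1 -1.91 to 0.00161, Tet1 -0.31 to 0.0655, Tet2 -0.18 to 0.0140 and Tet3 -0.34 to 0.0327. The gene Dnmt3a, at -0.00559 by edgeR, -0.00157 by DESeq2 and -0.00398 after TMM rescaling, and the gene Bmp4, at 0.0298 with the replicate block, also changed sign.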
